A study of Mus musculus with 8 samples.

Results

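The transcripts described here are those of 8 enzymes that build and cap the sialylated glycans of mouse B cells: Cmah, Cmas, St6gal1, St3gal1, St3gal2, St8sia4, Gcnt1 and B4galt1. They were listed by name, with earlier results of these data known, and make up 8 of the 24259 gene symbols in the deposited count table. All 8 passed the filter on low counts and were among the 12744 genes tested. At the germinal center stage the surface glycans of mouse B cells are remodelled. The antibody GL7, a standard stain for germinal center B cells, binds alpha2,6-linked N-acetylneuraminic acid on lactosamine, and it binds well once CMAH, which turns N-acetylneuraminic into N-glycolylneuraminic acid, is repressed. The lectin peanut agglutinin, another stain for the same cells, binds core 1 O-glycans that lack their alpha2,3 sialic acid cap.

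The samples were B cells with the surface phenotype NP+IgDlowB220+, called pre-GC B cells by the study, sorted from draining lymph nodes of C57BL/6 mice on day 3 after immunization. The recipients were Sap-/-, so their own T cells give little germinal center help. They received OT-II T cells, which carry a transgenic receptor for an ovalbumin peptide, and were immunized 1 day later with NP-OVA and LPS in alum. In the HET group (4 libraries) the transferred OT-II cells were CD4-CrexBcl6fl/+ and have 1 functional Bcl6 allele after recombination, and in the WT group (4 libraries) they carried CD4-Cre and no floxed Bcl6 allele. The Cre transgene and the floxed allele were in the transferred OT-II cells, and the sequenced B cells were those of the recipients. These B cells therefore carried no Bcl6 deletion, and no targeted gene was available to check the group names. Cells from all recipients of a group were pooled before sorting, and each library came from about 200 cells of that pool. The spread among the 4 libraries of a group therefore measures sorting and library preparation, and the p-values below do not cover differences between mice. Group and pool of cells cannot be told apart here. The comparison of HET with WT addresses whether B cells helped by T cells with less BCL6 differ at the transcript level.

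Library totals ran from 6652386 to 12559189 counts, and 3 counts corresponded to 0.241 to 0.455 CPM (read counts scaled to library size). All 7 B cell identity markers were detected in every library, with summed levels of 20118 to 21447 CPM in HET and 23156 to 25491 CPM in WT. Of 12 T cell markers 11 were detected in every library, with sums of 348 to 651 CPM in HET and 188 to 503 CPM in WT. The exception was Cd4, at 0 to 0.758 CPM, while Cd8a was at 7.19 to 57.1 CPM and Cd8b1 at 12.2 to 123 CPM. Of 10 myeloid markers 3 were detected in every library, with sums of 34.3 to 104 CPM in HET and 36.1 to 432 CPM in WT. Germinal center markers summed to only 144 to 206 CPM in HET and 104 to 161 CPM in WT, and among them Gcsam was at 0 counts in all 4 WT libraries and in HET replicates 2 and 4. Naive B cell markers reached 4070 to 4952 CPM in HET and 5252 to 5496 CPM in WT. HET replicate 1 stood apart in the sum of plasmablast transcripts, with 2558 CPM against 379 to 874 CPM in the other 7 libraries. Of this sum, 1576 CPM were Jchain alone. Irf4, Slamf7, Mzb1 and Ly6c2 were also highest in that library, and Prdm1, Xbp1, Sdc1 and Tnfrsf17 were not. In RNA from whole pools of cells, a lower level in fewer cells of a type and less RNA per cell cannot be told apart.

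No enzyme of the 8 passed the adjusted threshold between HET and WT. By edgeR quasi-likelihood test with Benjamini-Hochberg adjustment, 0 of the 8 had an adjusted p under 0.05, beside 0.0235% of all genes tested. By the same fit without adjustment, 1 of the 8 had a p under 0.05, St8sia4, which was lower in HET, beside 7.22% of all tested genes in either direction and 3.88% in that direction. DESeq2 gave an adjusted p under 0.05 for 0 of the 8 (0.687% of its tested genes). The fitted values were above 0 for 4 enzymes and below 0 for 4, with a median log2 fold change of −0.04 beside −0.0014 over all genes tested. The groups did not overlap for 1 enzyme, St3gal2, which was higher in HET, beside 4.61% of tested genes in either direction and 1.99% in that direction.

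**Figure D1:**
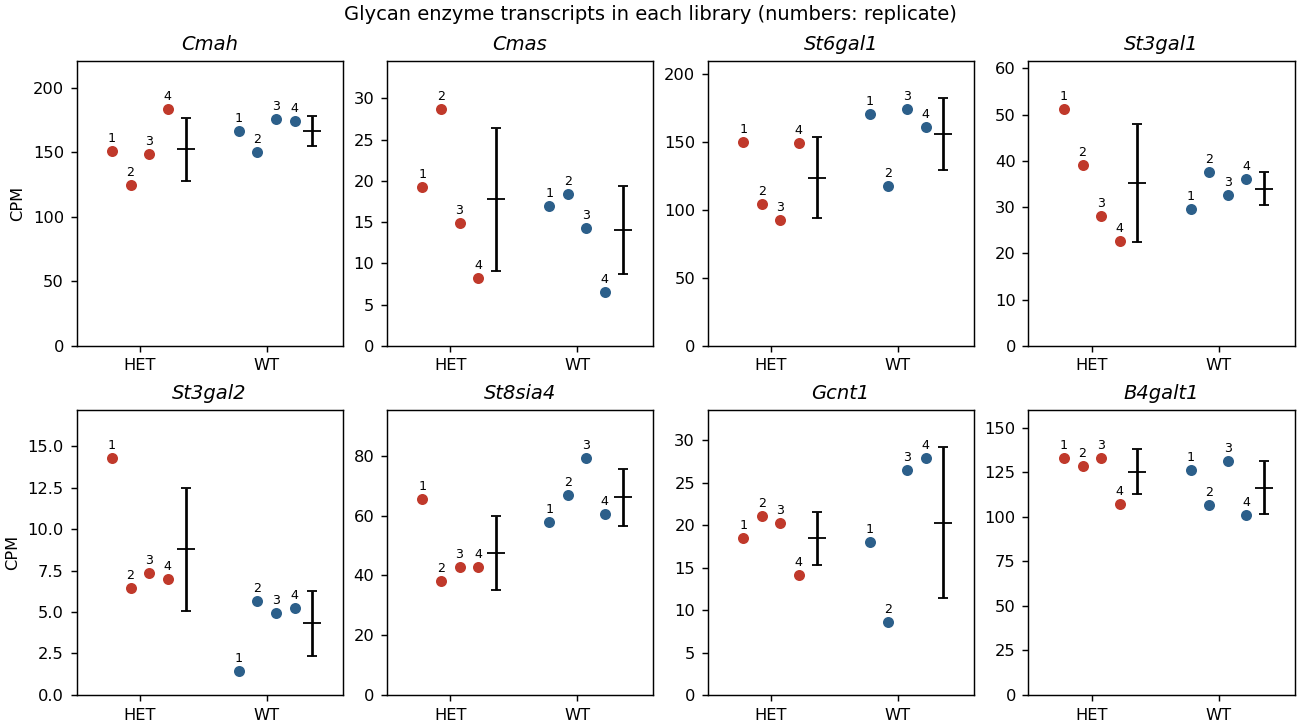
CPM (vertical axes, from 0) of the 8 enzymes in each of the 4 HET and 4 WT libraries, with the mean ± SD of each group as a black bar and the replicate number above each point. Only the St3gal2 groups do not overlap, and HET replicate 1 is the highest HET library for both St3gal2 (14.3 CPM) and St8sia4 (65.7 CPM).

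The first step towards GL7-type ligands is the supply and type of sialic acid. Cmah encodes the hydroxylase that acts on CMP-N-acetylneuraminic acid. Its level was 151, 125, 149 and 184 CPM in HET replicates 1 to 4 and 167, 149.9, 176 and 174 CPM in WT replicates 1 to 4. The HET values surrounded the WT values on both sides. The means were 152 ± 24.3 CPM (SD, n = 4) and 167 ± 11.8 CPM (SD, n = 4). Cmah differed by a log2 fold change of −0.13 (SE 0.13, 95% interval −0.40 to 0.14), with an edgeR adjusted p = 0.875. Cmah rested on 962 to 1879 counts per library, and 35.9% of tested genes had a smaller p.

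Cmas encodes the synthetase that couples sialic acid to CMP, the form every sialyltransferase uses. It was measured at 19.2, 28.8, 14.8 and 8.19 CPM in HET replicates 1 to 4 and at 16.9, 18.4, 14.3 and 6.47 CPM in WT replicates 1 to 4. Both groups spread widely and overlapped throughout. The means were 17.7 ± 8.63 CPM and 14.01 ± 5.31 CPM (SD, n = 4 each). The log2 fold change was 0.34 with SE 0.40 and a 95% interval of −0.52 to 1.21 (edgeR adjusted p = 0.901). Without HET replicate 2 the log2 fold change of Cmas was 0.02. With 54 to 239 counts per library, Cmas was among the less deeply counted of the 8.

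St6gal1 encodes the sialyltransferase that puts alpha2,6-linked sialic acid on lactosamine, the linkage that GL7 and the B cell lectin CD22 bind. Its level was 149.7, 104, 92.4 and 149.1 CPM in HET replicates 1 to 4 and 171, 117, 175 and 161 CPM in WT replicates 1 to 4. WT replicates 1, 3 and 4 lay above every HET library, and WT replicate 2 lay among the HET values. The means were 124 ± 29.9 CPM and 156 ± 26.4 CPM (SD, n = 4 each). St6gal1 differed by a log2 fold change of −0.33 (SE 0.17, 95% interval −0.71 to 0.04), with an edgeR adjusted p = 0.732, and 10.7% of tested genes had a smaller p. Left out 1 at a time, the libraries gave log2 values between −0.45 and −0.21, with an unadjusted edgeR p under 0.05 in 3 of 8 cases. St6gal1 shares 200 exonic bases with BC106179 on the other strand, and the strand setting of the counting is not given in the sources used here, so reads from the shared bases cannot be assigned to one of them. BC106179 itself had a log2 fold change of −0.56 (edgeR adjusted p = 0.776).

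B4galt1 encodes the galactosyltransferase that makes the lactosamine on which ST6GAL1 acts. The libraries gave 133, 128, 133 and 107 CPM in HET replicates 1 to 4 and 126, 107, 132 and 101 CPM in WT replicates 1 to 4. The 2 groups covered almost the same range. The means were 125 ± 12.5 CPM and 116 ± 15.0 CPM (SD, n = 4 each), a log2 fold change of 0.11 with SE 0.13 and a 95% interval of −0.17 to 0.38 (edgeR adjusted p = 0.901). Along with Cmah, B4galt1 had the narrowest interval of the 8.

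St3gal1 and St3gal2 encode sialyltransferases that cap core 1 O-glycans with alpha2,3-linked sialic acid, which covers the site peanut agglutinin binds. St3gal1 was measured at 51.3, 39.1, 28.02 and 22.6 CPM in HET replicates 1 to 4 and at 29.6, 37.6, 32.7 and 36.01 CPM in WT replicates 1 to 4. All 4 WT values lay inside the HET range. The means were 35.3 ± 12.7 CPM and 33.98 ± 3.54 CPM (SD, n = 4 each), with a log2 fold change of 0.06 (SE 0.25, 95% interval −0.48 to 0.59, edgeR adjusted p = 0.977). The sign of this value turned when HET replicate 1 was left out (−0.18), so no direction is given for St3gal1.

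St3gal2 had the lowest counts of the 8, with 46 to 178 per HET library and 15 to 56 per WT library. Its level was 14.3, 6.48, 7.34 and 6.98 CPM in HET replicates 1 to 4 and 1.43, 5.69, 4.92 and 5.22 CPM in WT replicates 1 to 4. Every HET library was above every WT library, with HET replicate 1 the highest and WT replicate 1 the lowest of the 8. The means were 8.78 ± 3.71 CPM and 4.31 ± 1.95 CPM (SD, n = 4 each). The log2 fold change was 1.03 with SE 0.49 and a 95% interval of −0.03 to 2.09, with an adjusted p = 0.706 by edgeR and 0.529 by DESeq2, and 7.85% of tested genes had a smaller edgeR p. Without HET replicate 1 the log2 fold change was 0.69, and without WT replicate 1 it was 0.74. HET replicate 1 was also the library with 2558 CPM of plasmablast markers, most of it Jchain. Its myeloid marker sum, 104 CPM, was the highest in HET, and WT replicate 2 was at 432 CPM. The part of either marker group in the St3gal2 value was not tested.

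Gcnt1 encodes the enzyme that adds the core 2 branch to O-glycans and thereby competes with the capping of core 1. The libraries gave 18.5, 21.1, 20.2 and 14.1 CPM in HET replicates 1 to 4 and 18.1, 8.64, 26.5 and 27.97 CPM in WT replicates 1 to 4. The WT libraries contained both the lowest and the highest values. The means were 18.5 ± 3.12 CPM and 20.3 ± 8.92 CPM (SD, n = 4 each), with a log2 fold change of −0.13 (SE 0.34, 95% interval −0.86 to 0.60, edgeR adjusted p = 0.962). Without WT replicate 4 the value was 0.06, so no direction is given for Gcnt1 either.

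St8sia4 encodes a polysialyltransferase, which extends sialic acid into chains. It was measured at 65.7, 38.2, 42.8 and 42.8 CPM in HET replicates 1 to 4 and at 58.0, 66.7, 79.4 and 60.5 CPM in WT replicates 1 to 4. HET replicates 2 to 4 lay below all WT libraries, while HET replicate 1 lay among them. The means were 47.4 ± 12.4 CPM and 66.2 ± 9.56 CPM (SD, n = 4 each). St8sia4 had a log2 fold change of −0.48 (SE 0.19, 95% interval −0.89 to −0.06), with an adjusted p = 0.616 by edgeR and 0.405 by DESeq2. Of all tested genes 4.47% had a smaller p, beside the 7.22% of genes with an unadjusted p under 0.05. The value was −0.68 without HET replicate 1 (edgeR adjusted p = 0.355) and −0.37 without WT replicate 3, and the unadjusted p was under 0.05 in 4 of the 8 fits that left out 1 library.

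**Figure D2:**
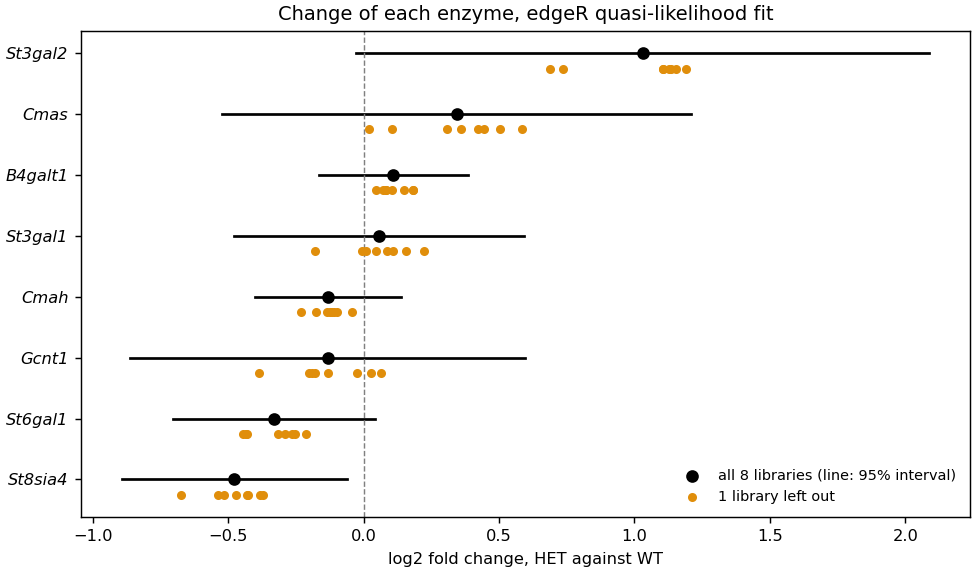
Log2 fold change of HET against WT (horizontal axis) for each enzyme from the edgeR fit on 8 libraries (black, with its 95% interval) and from the 8 fits that leave out 1 library (orange). Only the St8sia4 interval, −0.89 to −0.06, lies to 1 side of 0, and the orange points of St3gal1 and Gcnt1 fall on both sides of 0.

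Upstream sequence was read from RefSeq (GRCm38.p6) as the 250 bases before each annotated start site, which gave 11 windows for 6 of the 8 enzymes (Cmah, Cmas, St6gal1, St8sia4, Gcnt1 and B4galt1). Both strands were searched for 4 motifs of factors known in activated B cells. These were an AP-1-like pattern, TGANTCA (in 6.75% of 32851 such windows genome-wide), and the MYC E-box CACGTG (6.02%). The others were the BCL6 site TTCCTNGAA (1.31%) and the octamer ATGCAAAT (1.6%). The TGANTCA pattern takes any middle base and is looser than the AP-1 site, which has C or G there. The only match in the 11 windows was TGAATCA, 15 bases before start site 3 of St6gal1. It matches the pattern as searched, where N stands for any base. Its middle base is A, so it is not the stricter AP-1 site. The windows of St6gal1 start site 3 and of St8sia4, the enzyme with the smallest p, are printed in full. The former is chr16:23290220-23290469 (plus strand, capitals mark the matched letters) and the latter chr1:95667595-95667844 (minus strand, no match).
St6gal1, start site 3: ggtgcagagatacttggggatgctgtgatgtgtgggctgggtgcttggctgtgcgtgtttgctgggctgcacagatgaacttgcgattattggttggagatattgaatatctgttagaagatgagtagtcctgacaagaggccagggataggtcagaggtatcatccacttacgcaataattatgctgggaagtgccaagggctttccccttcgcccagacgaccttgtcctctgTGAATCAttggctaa
St8sia4: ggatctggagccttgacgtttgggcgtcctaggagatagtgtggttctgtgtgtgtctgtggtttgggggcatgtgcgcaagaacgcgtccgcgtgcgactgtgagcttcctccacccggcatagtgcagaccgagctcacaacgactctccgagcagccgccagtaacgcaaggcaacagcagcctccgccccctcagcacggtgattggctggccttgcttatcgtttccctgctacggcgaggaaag
Which St6gal1 start site these cells used was not measured, and a match is a description of letters only. The genes themselves span chr16:23224740-23360350 (St6gal1, plus strand) and chr1:95587682-95667571 (St8sia4, minus strand) in GRCm38, and both printed windows hold 0 exonic bases of the annotation.

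Levels were compared between enzymes as CPM per 1000 exonic bases, averaged over the 8 libraries. B4galt1 (28.6, range 23.8 to 31.5) and St6gal1 (28.4, range 18.8 to 35.5) were highest and did not differ beyond their spread, with B4galt1 above St6gal1 in 4 of 8 libraries. Cmah came next at 14.9 (11.7 to 17.2), below St6gal1 in 8 of 8 libraries and above St3gal1 in 8 of 8. These levels placed B4galt1 and St6gal1 at the 85.1 percentile of tested genes and Cmah at the 73.8 percentile. The transcripts for lactosamine and its alpha2,6 cap were thus the most abundant of the set on this scale. The Cmah transcript was present in all 8 libraries. No other B cell stage was among them, so a change of Cmah from another stage was not measured.

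The other 5 enzymes formed a lower tier per exonic length. St3gal1 stood at 5.05 (3.30 to 7.49) and was above Cmas in 7 of 8 libraries. Cmas at 3.37 (1.37 to 6.10) and Gcnt1 at 3.37 (1.499 to 4.86) did not differ beyond their spread. St8sia4 at 2.83 (1.90 to 3.95) was below Gcnt1 in 6 of 8 libraries and above St3gal2, at 1.30 (0.283 to 2.84), in 8 of 8. The rank of St8sia4 depends on the length used. Its annotated exons cover 20091 bases but its longest transcript 10027, and with the latter its level was 5.66, above Cmas in 6 of 8 libraries. St6gal1 and B4galt1 also changed places on that scale, at 31.0 and 30.4.

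**Figure D3:**
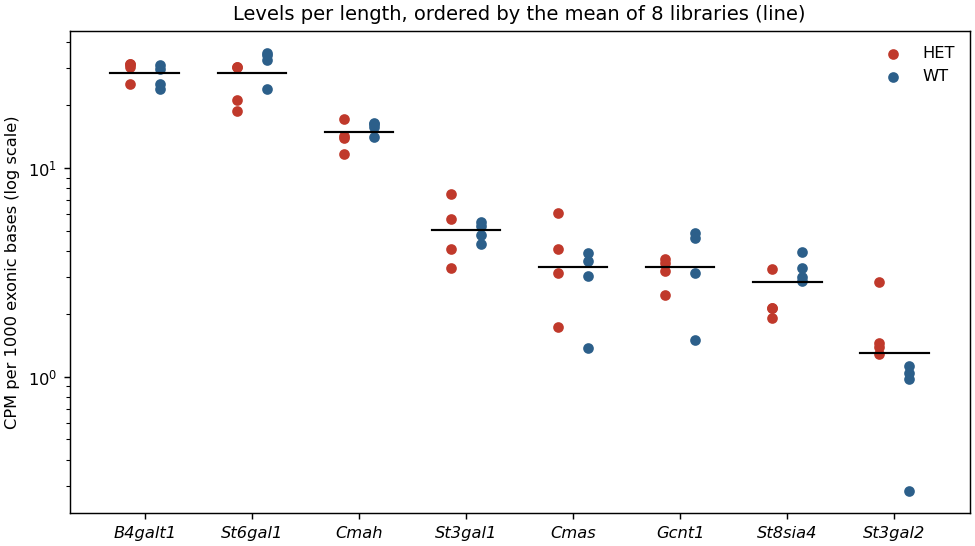
CPM per 1000 exonic bases (log axis) for each library, HET in red and WT in blue, with the enzymes ordered by their mean over 8 libraries (black line). The means run from 28.6 for B4galt1 to 1.30 for St3gal2.

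Balances between enzymes of linked steps were read from the same scale, as values per library with no test. The ratio of St6gal1 to Cmah was 2.15, 1.81, 1.35 and 1.76 in HET replicates 1 to 4 and 2.22, 1.70, 2.16 and 2.005 in WT replicates 1 to 4, so the groups overlapped. The ratio of Gcnt1 to St3gal1, the enzymes that compete for core 1, was 0.429 to 0.859 in HET and 0.273 to 0.964 in WT. Cmas stood at 0.101 to 0.522 times the level of Cmah in HET and at 0.0841 to 0.278 in WT. No ratio separated the groups.

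Among 14 sialyltransferases with an annotated length and counts in the table, St6gal1 held the largest share of summed CPM per 1000 exonic bases in each library. Its share was 31.0% to 43.8% in HET (37.4% ± 5.26, SD, n = 4) and 40.1% to 47.6% in WT (44.0% ± 3.38, SD, n = 4), and the groups overlapped. St8sia4 made up 3.07% to 4.12% in HET and 3.82% to 5.59% in WT. As with its rank, this share depends on the length used. St3gal2 made up 1.998% to 3.58% in HET and 0.374% to 1.90% in WT. For comparison, the shares of St6galnac4, which adds alpha2,6 sialic acid to O-glycans, and St3gal6, which caps lactosamine with alpha2,3 sialic acid, were 10.9% to 23.5% and 13.3% to 20.7% over all 8 libraries. The sum over all 14 was 58.0 to 79.4 in HET and 59.5 to 77.0 in WT.

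Other genes of glycan synthesis and recognition were described by their lists, of which 60 genes were in the table and 46 were tested. None of the 46 passed the adjusted threshold in edgeR, beside 0.0235% of all genes. Without adjustment, 0 were higher and 4 lower in HET with an edgeR p under 0.05 (Cd22, B3gnt5, Siglecg and C1galt1), beside 3.34% and 3.88% of all genes. The fitted values were above 0 for 20 and below 0 for 26, with a median of −0.10. By step, counting the 8 enzymes with their lists, 8 genes of sialic acid supply were tested (5 higher, 3 lower), 13 sialyltransferases (7 higher, 6 lower), 7 of lactosamine chains (3 higher, 4 lower), 8 of N-glycan branching (4 higher, 4 lower), 10 of O-glycans (3 higher, 7 lower), 3 sugar transporters (1 higher, 2 lower), 4 Siglecs (1 higher, 3 lower) and 1 sialidase (lower). These are the signs of the fitted values, most of which did not pass any threshold.

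**Figure D4:**
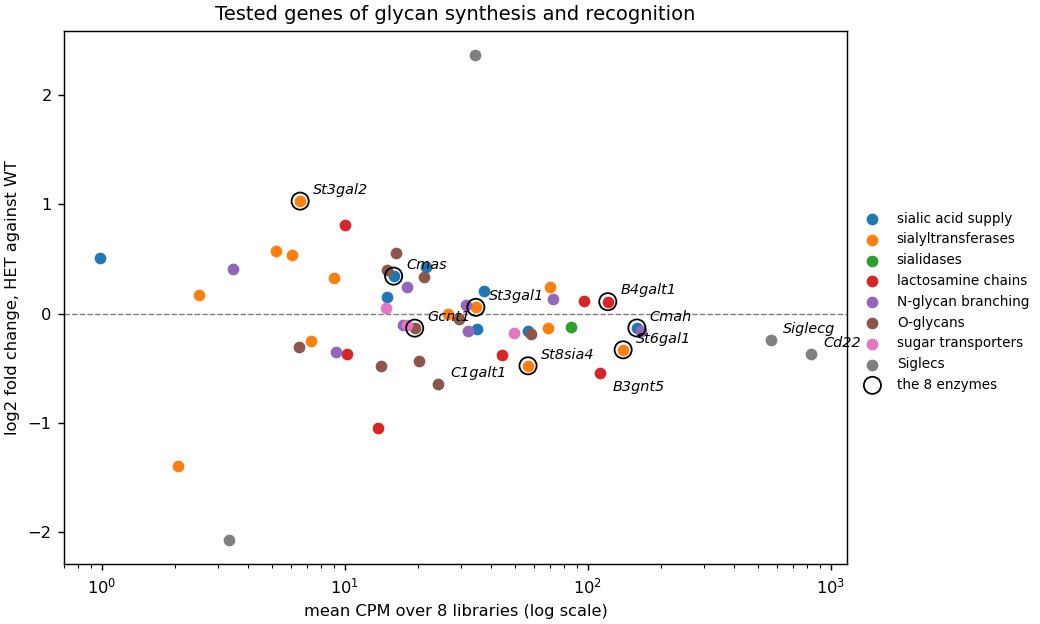
Log2 fold change of HET against WT (vertical axis) against the mean CPM over 8 libraries (log axis) for the tested genes of each list (colour), with the 8 enzymes circled. Names are given for the 8 enzymes and for the 4 other genes with an unadjusted edgeR p under 0.05, all of which lie below 0.

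Of the pathway genes, Cd22 had the smallest edgeR p. It encodes an inhibitory co-receptor of the B cell receptor that binds alpha2,6-linked sialic acid, the product of ST6GAL1. Its level was 748, 715, 696 and 741 CPM in HET replicates 1 to 4 and 935, 818, 949.6 and 1045 CPM in WT replicates 1 to 4. No HET library reached the lowest WT library, as for 2.62% of tested genes. The means were 725 ± 23.7 CPM and 937 ± 93.2 CPM (SD, n = 4 each), with a log2 fold change of −0.37 (SE 0.08, 95% interval −0.54 to −0.20). The adjusted p was 0.220 by edgeR and 0.0159 by DESeq2, so the call differed between the tools. Left out 1 at a time, the libraries gave values from −0.43 to −0.31.

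The B cell identity markers moved with Cd22. Of the 7, all were lower in HET and 6 had an unadjusted edgeR p under 0.05, beside 3.88% of all tested genes. None passed the edgeR adjusted threshold, and 1, Cd74, passed that of DESeq2. The summed levels did not overlap (20118 to 21447 CPM in HET, 23156 to 25491 CPM in WT). Per 1000 CPM of these markers, a scale added after the values were seen, Cd22 was 32.5 to 36.7 in HET and 35.3 to 41.1 in WT, and the groups overlapped, with a log2 ratio of the means of −0.10. With Cd74, the most abundant of the markers, left out of the sum, the ratio was −0.18. The part of the marker shift in the Cd22 value was not tested further. Cd22 also shares 479 exonic bases with the antisense gene Gm29439, whose log2 fold change was −0.49 (edgeR adjusted p = 0.362), and without the strand setting reads from the shared bases cannot be told apart.

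Siglecg encodes the other sialic acid lectin of B cells that dampens receptor signalling. Its level was 514, 524, 548 and 491 CPM in HET replicates 1 to 4 and 562, 629.9, 722 and 542 CPM in WT replicates 1 to 4. HET replicate 3 lay just above WT replicate 4, and the other HET libraries lay below all WT libraries. The log2 fold change was −0.24 (SE 0.09, 95% interval −0.44 to −0.04), with an edgeR adjusted p = 0.612. Per 1000 CPM of the B cell markers Siglecg was 23.8 to 26.1 in HET and 21.3 to 28.3 in WT, a log2 ratio of 0.02, and with Cd74 left out of the marker sum the ratio was −0.05, so no direction is given on that scale.

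**Figure D5:**
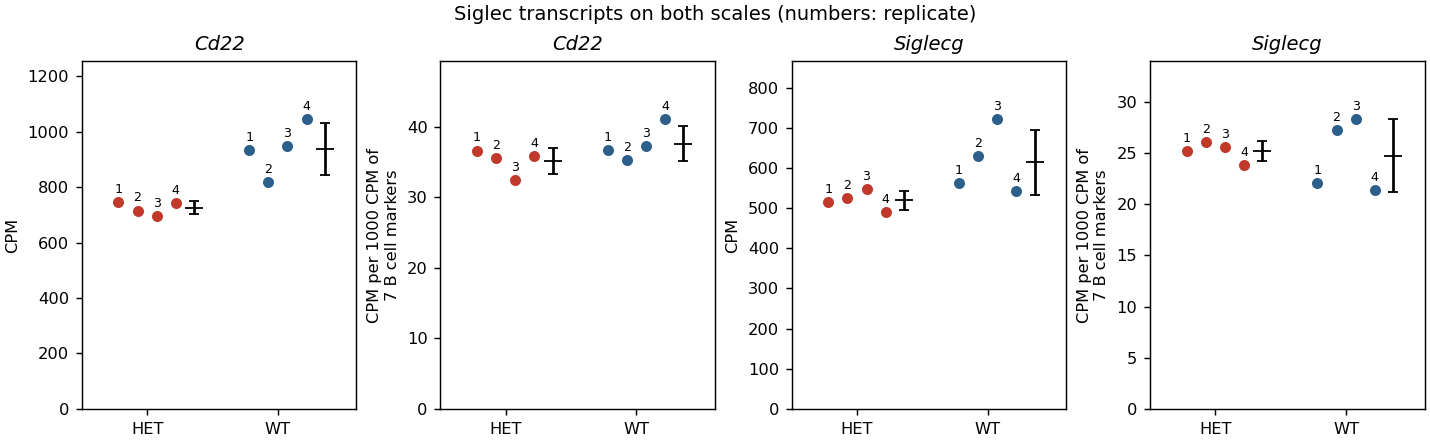
Cd22 and Siglecg in each library as CPM and as CPM per 1000 CPM of 7 B cell markers (vertical axes, from 0), with the mean ± SD of each group as a black bar. The Cd22 groups are apart in CPM (at most 748 in HET, at least 818 in WT) and overlap on the marker scale, as the Siglecg groups do on both.

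On the same marker scale the enzymes moved as follows. The log2 ratio of the means was −0.21 for St8sia4, −0.05 for St6gal1 and 0.14 for Cmah, all with overlapping groups, and the Cmah sign was the opposite of that in CPM. With Cd74 left out of the marker sum these ratios were −0.29, −0.13 and 0.06. St3gal2 was at 0.322 to 0.702 in HET and 0.0560 to 0.246 in WT, with a log2 ratio of 1.28, and of 1.205 without Cd74. That these groups stay apart was fixed in advance and is no separate check. In every HET library St3gal2 CPM was above, and the full marker sum below, that of all WT libraries. Naive B cell markers were also lower in HET (8 of 8 fitted values, 5 with an unadjusted edgeR p under 0.05), cell cycle genes were higher (18 of 19, 7 with an unadjusted p under 0.05) and germinal center markers were mostly higher (8 of 9 tested, 4 with an unadjusted p under 0.05). The germinal center marker on the lower side was Bcl6, at a log2 fold change of −0.50 (edgeR adjusted p = 0.629, unadjusted under 0.05). T cell markers were above 0 in 11 of 11 fitted values, with a median log2 fold change of 0.58 and 0 with an unadjusted p under 0.05. Of all tested genes, 3.34% were higher and 3.88% lower with an unadjusted edgeR p under 0.05. None of these markers passed the edgeR adjusted threshold, while DESeq2 called 2 naive and 2 cell cycle markers. The part of these marker groups in the enzyme values was not tested.

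Of the remaining pathway genes, B3gnt5 encodes a transferase that starts lactosamine-type chains on glycolipids. It was measured at 105, 81.5, 84.3 and 96.6 CPM in HET replicates 1 to 4 and at 96.9, 119, 153 and 166 CPM in WT replicates 1 to 4. The groups overlapped through HET replicate 1 and WT replicate 1. The log2 fold change was −0.54 (SE 0.17, 95% interval −0.90 to −0.19), with an edgeR adjusted p = 0.492. C1galt1, which encodes the enzyme that makes core 1 itself, was at 15.3, 13.2, 21.6 and 25.2 CPM in HET and 39.6, 22.1, 21.3 and 34.2 CPM in WT. Its HET and WT values overlapped, with a log2 fold change of −0.65 (SE 0.29, 95% interval −1.27 to −0.02, edgeR adjusted p = 0.667).

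A single gene per list was also named by its mean in the deposited TPM table. TPM there follow the span of the locus, so these genes need not be the most abundant of their lists, and in CPM, for instance, Galnt1, which starts O-glycans, was higher (58.4) than C1galt1c1 (16.2), the O-glycan gene named by TPM. C1galt1c1 (Cosmc), the chaperone of C1galt1, had a log2 fold change of 0.55 (SE 0.34, 95% interval −0.17 to 1.28, edgeR adjusted p = 0.781), and Galnt1 had −0.19. For the Siglecs the gene so named was Cd22, described above. The genes named in the other lists had log2 fold changes of −0.16 (Nans, a sialic acid synthase), 0.24 (St6galnac4), −0.13 (Neu1, the lysosomal sialidase), 0.11 (B3gnt8, a lactosamine chain enzyme), 0.13 (Mgat2, an N-glycan branching enzyme) and −0.18 (Slc35c1, the GDP-fucose transporter). Apart from Cd22, none of the genes named by TPM had an unadjusted edgeR p under 0.05.

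The genes whose log2 CPM followed the enzymes most closely over the 8 libraries were sought for Cmah and St6gal1 among 7102 genes. For Cmah they were Terf2ip, a telomere protein (Pearson r = 0.98, Spearman rho = 0.90), Cd81, a tetraspanin (r = 0.96, rho = 0.86), and Slc39a9, a zinc transporter (r = 0.96, rho = 0.86). For St6gal1 they were Mapre2, a microtubule end-binding protein (r = 0.99, rho = 0.98), AW549877 (r = 0.98, rho = 0.95) and Dpp8, a peptidase (r = 0.96, rho = 0.88). These are the highest of many values over 8 libraries that share 2 pools of cells, and are given as a description.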

How the data were processed

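Per the labels and the study's methods, RNA of about 200 sorted cells per library was amplified with an adapted SMART-Seq2 protocol, and the submitters' processing notes name HISAT2 2.2.1, HTSeq and the build mm10 (GRCm38). The authors deposited whole-number read counts per gene for 24259 symbols, with no normalization. The authors also deposited TPM values for 24232 symbols. Annotation release, strand setting and the handling of multiply aligned reads are not given in the sources used here.

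Counts were fitted with edgeR 4.0.16 in R 4.3.3 (TMM scaling, filterByExpr, robust quasi-likelihood test of HET against WT, Benjamini-Hochberg adjustment over 12744 genes, which hold 99.7% of counts). CPM are TMM-scaled. SE is the log2 fold change over the root of F, and intervals are 95%. The procedure was tested on simulated data. Alternatives used DESeq2 1.42.0, limma 3.58.1 on log2(TPM + 1) and log2(TPM + 0.1), other filters and scalings, a replicate block, and each library left out. Library depth bears on counting error, and any other part of it in the values was not tested. Deposited TPM served the limma alternatives and the choice of 1 named gene per list, and not the comparison of levels between genes, because the ratio of count to TPM followed the span of the whole locus (Pearson r = 0.964 over 8944 genes) more closely than exonic length (r = 0.671). CPM were divided by exonic bases of GENCODE M21 instead. Named genes were the 8 enzymes, other pathway genes with p under 0.05, the highest gene by mean TPM of each list, and for Cmah and St6gal1 the 3 genes most alike in log2 CPM over the libraries (mean log2 CPM 4 or more). The enzymes and lists were chosen with earlier results of these data known. Listed pathway genes outside the count table were not analysed here.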

Additional observations from a re-analysis of the deposited data

Results flagged for a closer look

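Each of 19 named genes was examined in both groups of 4 libraries, 38 groups in all, for a highest or lowest library whose gap to its neighbour, over the range, passed Dixon's 95% critical value, and 2 were found, where chance gives about 1.9. St3gal2 stood at 14.3 CPM in HET replicate 1 while HET replicates 2 to 4 stood at 6.48 to 7.34 CPM, a gap of 0.890 of the range. St3gal2 in WT replicate 1 (1.43 CPM against 4.92 to 5.69 CPM) did not pass. St8sia4 stood at 65.7 CPM in the same library against 38.2 to 42.8 CPM, a gap of 0.831 of the range. Leaving that library out lowered the St3gal2 log2 fold change from 1.03 to 0.69 and moved that of St8sia4 from −0.48 to −0.68. HET replicate 1 also had the highest total count, 12559189, and the highest plasmablast marker sum, 2558 CPM, most of it Jchain. Its myeloid marker sum, 104 CPM, was the highest in HET, and WT replicate 2 was at 432 CPM. The part of the total and of these sums in both values was not tested.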

How the results depend on the processing

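The number of genes past the adjusted threshold was 3 by edgeR, 38 without a filter on low counts, 7 with a mean of at least 50 counts, 95 by DESeq2, 0 with the replicate block and 0 in all 3 limma fits on TPM, and 1 to 6 with 1 library left out (6 without WT replicate 1, 1 without WT replicate 3 or any HET replicate). The cause was not tested. None of the 8 enzymes passed it in any alternative run, where their smallest adjusted p was 0.355. Among the other pathway genes the count was 0 by edgeR and 1 by DESeq2 (Cd22). Same-numbered libraries did not vary together (r from −0.05 to 0.01, own number best in 1 of 4), so the numbers were not taken as pairs.

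Of 322 values for 19 genes, 10 changed sign. St3gal1 fell to −0.0071 with the block, −0.0292 on log2(TPM + 1), with or without its filter, and −0.0561 on log2(TPM + 0.1), and ran from −0.18 to 0.22 with 1 library left out. Gcnt1 ran from −0.39 to 0.0635, B3gnt8 from −0.0538 to 0.21 and Mgat2 from −0.0180 to 0.26 with 1 library left out. St3gal2 was 0.32 on log2(TPM + 1), where the pseudocount shrinks low values. With the longest transcript as length, chosen after seeing the data, the Cmas level became 4.91 and that of St8sia4 5.66. Precision is limited by 4 libraries from 1 pool per group and, for St3gal2 and Cmas, by low counts.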

Other observations

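Siglech, a lectin of plasmacytoid dendritic cells named here after its values were seen, was at 102, 91.8, 13.0 and 23.7 CPM in HET replicates 1 to 4 and at 0, 0, 5.93 and 39.0 CPM in WT replicates 1 to 4. Its groups overlapped, and the 2 WT libraries with no count allow levels of up to 0.285 and 0.305 CPM at 3 counts.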
